A study of Mus musculus with 4 samples.

Results

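The endoplasmic reticulum is the main calcium store inside a neuron, and 10 genes of that store are described here in sorted mouse neuron nuclei. They were chosen by symbol from the deposited expression table: the IP3 receptor genes Itpr1, Itpr2 and Itpr3, the ryanodine receptor genes Ryr1, Ryr2 and Ryr3, the pump genes Atp2a2 and Atp2a3, and the sensor genes Stim1 and Stim2. All 10 were found, each under 1 identifier, among 55487 listed genes. All 10 passed the filter on low values (at least 1 TPM in at least 2 libraries) that left 26055 genes for testing, and none passed it through 1 group alone. The samples were 2 libraries of excitatory neuron nuclei and 2 of inhibitory neuron nuclei, isolated by fluorescence-activated sorting from the whole brain, olfactory bulb excluded, of adult mice. Every library carried the genotype label WT and the same batch label, and no treatment was named. The labels did not say whether the replicates came from separate animals or pools, so p-values measure the spread between these libraries, which may be technical. The markers used for sorting were not given in the sources used here.

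IP3 receptors and ryanodine receptors are the channels through which the store releases calcium into the cytoplasm, the first opened by inositol trisphosphate made at the plasma membrane and the second by calcium itself. SERCA pumps, which the Atp2a genes encode, return calcium to the store at the cost of ATP. STIM proteins span the reticulum membrane, sense a fall of calcium inside the store and open Orai channels in the plasma membrane. In the brain, Itpr1 is best known from cerebellar Purkinje cells, where its protein was first studied, and Ryr1 and Ryr2 are the release channels of skeletal and heart muscle.

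Values are TPM, a unit scaled to transcript length and to the library's total, so that levels of different genes can be set side by side. How far unspliced RNA in the nuclei adds to the value of each gene was not tested, which limits ranks and shares across genes. The genes described here span 31.9 to 585.7 kb. Depth cannot be read back from TPM and is therefore unknown, and no counting interval was computed. Between 32207 and 32836 genes were above 0 per library. The labels were checked against markers of both neuron classes: 7 of 8 excitatory markers were higher in excitatory nuclei and 1, Slc17a6, was higher in inhibitory nuclei, while 7 of 7 tested inhibitory markers (of 8 listed) were higher in inhibitory nuclei. Of these 7, 1 passed the filter through the inhibitory libraries alone, so that this count partly follows from the filter. In bulk nuclei, a larger number of nuclei that express a gene and more RNA of it per nucleus cannot be told apart.

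Of the 10 genes, 5 were called higher in inhibitory nuclei (Itpr1, Ryr1, Ryr3, Atp2a3 and Stim1), 2 were called higher in excitatory nuclei (Ryr2 and Stim2), and 3 were not called (Itpr2, Itpr3 and Atp2a2). A call is an adjusted p under 0.05 in a limma model of log2(TPM + 1) fitted over all 26055 genes, with Benjamini-Hochberg adjustment. In the same fit 12.0% of all tested genes were called, 6.62% as higher in inhibitory and 5.43% as higher in excitatory nuclei. That balance between directions turned with median ratio scaling (1563 inhibitory and 1795 excitatory calls) and with quantile normalization (1570 and 1661). With 2 libraries a group, a gene that was not called may still differ. Among tested genes with a mean of at least 10 TPM, 14.1% were called. The libraries of the groups did not overlap for 9 of the 10 genes, against 56.2% of all genes tested, and the median log2 fold change (excitatory minus inhibitory) was -0.51 over the 10 genes and -0.07 over all. The calls depend on the settings of the model. Without the filter on low values, or without a variance trend, 1 of the 10 genes (Atp2a3) was called, and with any 1 of the 4 libraries left out limma called 0 genes of the whole table, at an unadjusted p under 0.05 for 5311 to 5812 genes. The direction held in every setting for 9 genes, and Itpr3 changed sign.

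**Figure D1:**
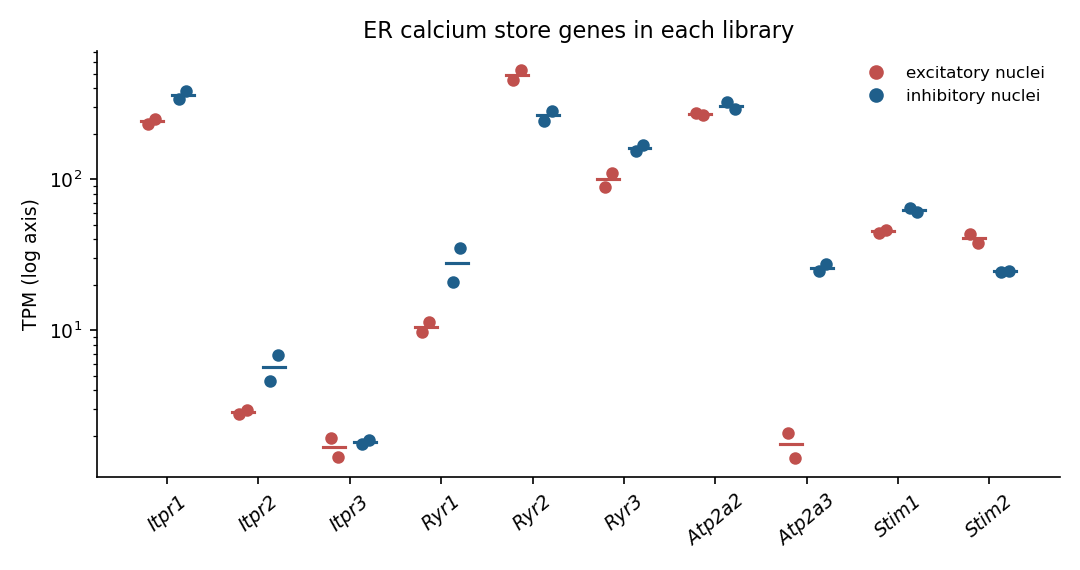
TPM of the 10 genes (log axis) in each library, with excitatory nuclei in red, inhibitory nuclei in blue and a bar at each mean of n = 2. Itpr3 is the gene whose groups overlap, and Atp2a3 has the widest gap, 1.44 and 2.10 TPM against 24.6 and 27.5 TPM.

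**Figure D2:**
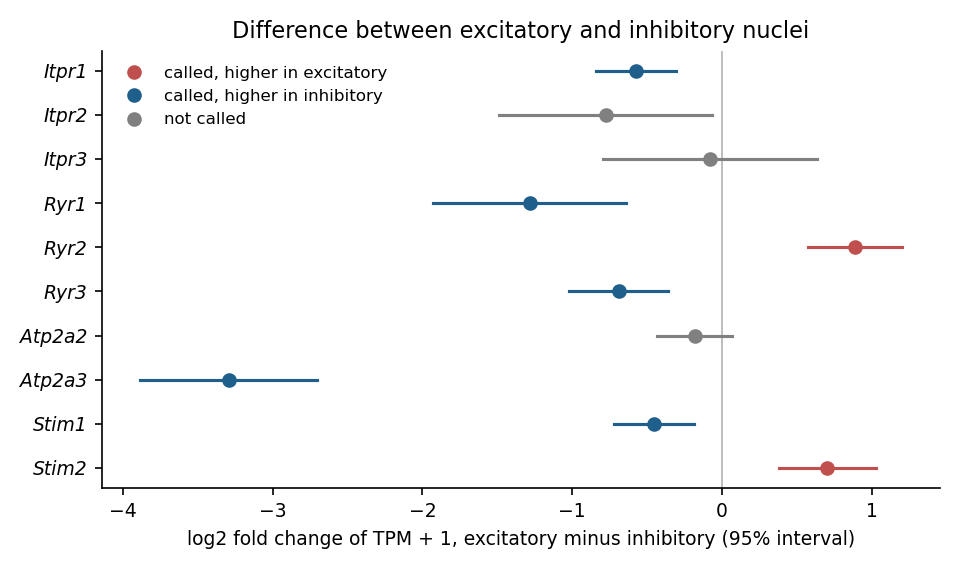
Log2 fold change of TPM + 1, excitatory minus inhibitory, with its 95% interval from limma, for the 10 genes. Atp2a3 lies farthest from 0, at -3.30, and Ryr2 and Stim2 are the genes called on the excitatory side.

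Among the IP3 receptors, Itpr1 made up nearly the whole family and was higher in inhibitory nuclei. Itpr1 (ENSMUSG00000030102, mm10 chromosome 6, 108213096 to 108551109, plus strand) stood at 233 and 252 TPM in the excitatory libraries and at 340.2 and 384 TPM in the inhibitory ones. Both inhibitory libraries lay above both excitatory ones. The means were 243 ± 12.9 and 362 ± 31.3 TPM (SD, n = 2 libraries each), a 1.49-fold difference, with a log2 fold change of -0.58 ± 0.11 (SE; limma adjusted p = 0.0251). In inhibitory nuclei Itpr1 was the most abundant of the 10 genes, above 99.6% of all genes tested.

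Itpr2 and Itpr3, the IP3 receptor genes better known from non-neuronal and secretory cells, were listed at low levels in both populations. Itpr2 (chromosome 6, 146108299 to 146502223, minus strand) stood at 2.81 and 2.95 TPM in excitatory and at 4.63 and 6.85 TPM in inhibitory libraries. These groups did not overlap, but the difference did not pass the test after adjustment (log2 fold change -0.78, 95% interval -1.49 to -0.07, limma adjusted p = 0.149). Itpr3 (chromosome 17, 27057304 to 27122223, plus strand) stood at 1.93 and 1.46 TPM against 1.78 and 1.88 TPM, so that the groups overlapped. Its log2 fold change was -0.08 with a 95% interval from -0.79 to 0.64 (limma adjusted p = 0.901), an interval that leaves room for a difference in either direction. Per library, Itpr1 took between 97.8% and 98.3% of the summed TPM of the IP3 receptors.

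The ryanodine receptors went in both directions. Ryr2 (ENSMUSG00000021313, chromosome 13, 11553102 to 12106945, minus strand) was higher in excitatory nuclei, at 452 and 528 TPM against 245 and 284 TPM in inhibitory libraries. Both excitatory libraries lay far above the inhibitory ones, with means of 490.2 ± 53.6 and 265 ± 27.8 TPM, a 1.85-fold difference (log2 fold change 0.89 ± 0.13, limma adjusted p = 0.0112). Ryr2 was the most abundant of the 10 genes in excitatory nuclei, above 99.8% of all genes tested, and stood behind Itpr1 and Atp2a2 in inhibitory nuclei.

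Ryr3 and Ryr1 were higher in inhibitory nuclei. Ryr3, often called the brain ryanodine receptor (chromosome 2, 112631355 to 113217096, minus strand), stood at 88.7 and 111 TPM in excitatory and at 153 and 168 TPM in inhibitory libraries, a 1.61-fold difference without overlap (log2 fold change -0.69 ± 0.13, limma adjusted p = 0.0279). Ryr1, the skeletal muscle channel (chromosome 7, 29003344 to 29125179, minus strand), stood at 9.74 and 11.3 TPM against 20.8 and 34.9 TPM. Its inhibitory libraries differed from each other more, in proportion to their mean, than for any other called gene of the 10, with a mean of 27.9 ± 9.98 TPM against 10.5 ± 1.102 TPM in excitatory nuclei (log2 fold change -1.28 ± 0.26, limma adjusted p = 0.0318). Without inhibitory replicate 1 the log2 fold change of Ryr1 was -1.64, and without inhibitory replicate 2 it was -0.92.

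The release channels differed in make-up more than in sum. All 6 release channel genes together summed to 789 and 906 TPM in excitatory and to 765 and 880.5 TPM in inhibitory libraries, and these ranges overlap. Ryr2 took 57.3% and 58.3% of that sum in excitatory libraries and 32.0% and 32.3% in inhibitory ones, while Itpr1 took 29.6% and 27.8% against 44.5% and 43.7%. In excitatory nuclei Ryr2 was thus 1.94 and 2.10 times as abundant as Itpr1, and in inhibitory nuclei 0.720 and 0.739 times. Within the ryanodine family, the share of Ryr3 was 16.1% and 17.04% in excitatory and 36.5% and 34.5% in inhibitory libraries, and that of Ryr1 1.77% and 1.74% against 4.97% and 7.17%. No exact permutation test of such a share can go below p = 0.333 with 2 libraries against 2, so shares are given as values.

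**Figure D3:**
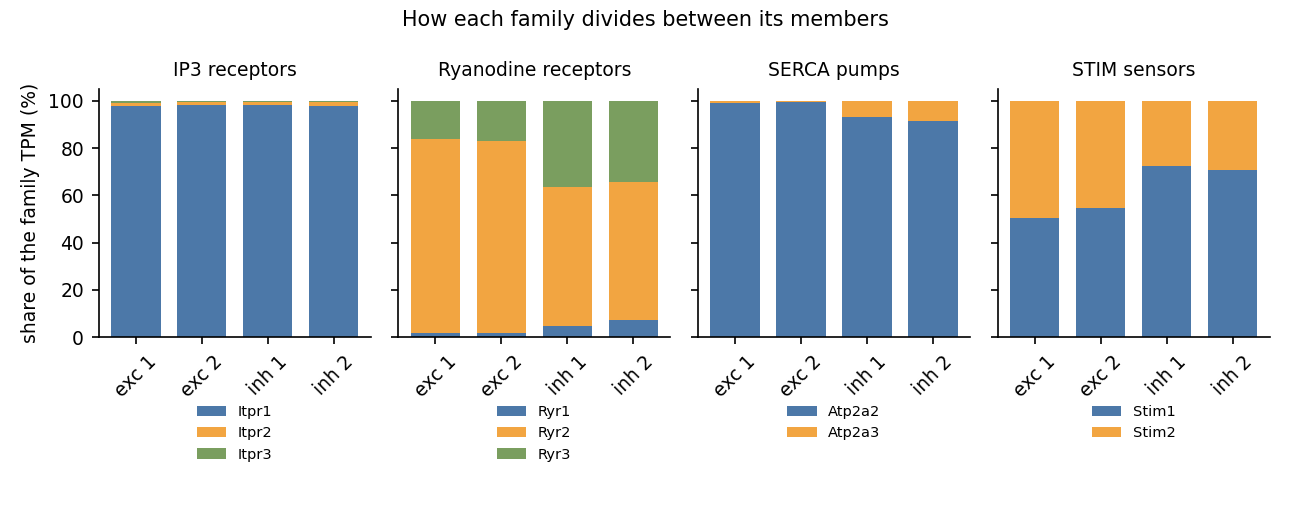
Share of each family's summed TPM (%) taken by each gene, 1 bar per library (exc, excitatory; inh, inhibitory). Itpr1 fills its family in all 4 libraries, whereas the shares of Ryr2, Atp2a3 and Stim2 differ between the groups without overlap.

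Of the pump genes, Atp2a3 showed the widest difference of the 10 genes and Atp2a2 was not called. Atp2a3 encodes SERCA3, an isoform known from blood cells, some epithelia and Purkinje cells (ENSMUSG00000020788, chromosome 11, 72961169 to 72993044, plus strand). It stood at 2.10 and 1.44 TPM in excitatory and at 24.6 and 27.5 TPM in inhibitory libraries. The inhibitory libraries were close to each other and far above both excitatory ones, with means of 26.0 ± 2.05 and 1.77 ± 0.471 TPM, a 14.7-fold difference. The log2 fold change was -3.30 ± 0.24 (limma adjusted p = 0.00224), smaller than the ratio of means because a pseudocount of 1 weighs on the low excitatory values, and 99.9% of all genes tested had a smaller absolute change. With a pseudocount of 0.1 it was -3.83. Atp2a3 was called in all 8 alternative settings other than leaving out a library. When a library was left out, its log2 fold change lay between -3.47 and -3.12, with unadjusted p from 1.68e-04 to 5.89e-04 and adjusted p from 0.0631 to 0.0673.

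Atp2a2, which encodes SERCA2, the pump of most tissues (chromosome 5, 122453513 to 122502225, minus strand), stood at 274 and 267 TPM in excitatory and at 325 and 290.2 TPM in inhibitory libraries. The groups did not overlap, but the 1.14-fold difference of means did not pass the test (log2 fold change -0.18, 95% interval -0.43 to 0.07, limma adjusted p = 0.314). Atp2a2 ranked second among the 10 genes in both populations, above 99.1% and 99.4% of all genes tested. Atp2a3 took 0.761% and 0.535% of the TPM of both pumps in excitatory libraries and 7.03% and 8.65% in inhibitory ones. Atp2a1, the pump of fast skeletal muscle, which is not among the 10 genes, stood at 0.556 to 1.17 TPM in the 4 libraries and took at most 0.367% of the TPM of the 3 pumps.

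The STIM sensors went in opposite directions while their sum stayed nearly level. Stim1, the sensor that opens Orai channels most strongly (chromosome 7, 102267806 to 102437319, plus strand), stood at 44.4 and 46.2 TPM in excitatory and at 64.3 and 60.4 TPM in inhibitory libraries, without overlap. The 1.38-fold difference was close to the threshold (log2 fold change -0.45 ± 0.11, limma adjusted p = 0.0494). The call of Stim1 was kept in 3 of 8 other settings, with the replicate block, the filter of at least 5 TPM and protein-coding genes only, and was lost in the rest with adjusted p up to 0.148. Stim2, which responds to smaller falls of store calcium (chromosome 5, 53998499 to 54121057, plus strand), stood at 43.5 and 38.0 TPM against 24.4 and 24.8 TPM, a 1.66-fold difference toward excitatory nuclei (log2 fold change 0.70 ± 0.13, limma adjusted p = 0.0252). The inhibitory libraries were nearly identical for Stim2 and well below both excitatory ones. Both sensors together summed to 87.9 and 84.2 TPM in excitatory and to 88.7 and 85.2 TPM in inhibitory libraries. Stim1 was 1.02 and 1.21 times as abundant as Stim2 in excitatory and 2.63 and 2.43 times in inhibitory libraries.

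Set in order of level, the genes kept nearly separate ranges. In excitatory nuclei the order from the top was Ryr2, Atp2a2, Itpr1, Ryr3, Stim1, Stim2, Ryr1, Itpr2, Atp2a3 and Itpr3, and only Atp2a3 and Itpr3 overlapped as neighbours. In inhibitory nuclei it was Itpr1, Atp2a2, Ryr2, Ryr3, Stim1, Ryr1, Atp2a3, Stim2, Itpr2 and Itpr3, where Ryr1 overlapped Atp2a3 and Atp2a3 overlapped Stim2. Each range rests on 2 libraries.

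Several of the 10 genes span long introns that hold other annotated genes, whose values were read as a further view of the same loci, chosen by position after the values of the 10 genes had been seen. In GENCODE M21, 22 annotated genes overlap the 10, of which 15 were tested. Of those tested, 10 share no exon base with the host, all 10 lie wholly within its span, and 4 were called, all in the direction of the host, where 12.0% of all genes tested were called. They sit in Ryr2 and Stim2. Within Ryr2, Gm47493 stood at 47.8 and 53.2 TPM in excitatory and at 22.6 and 26.9 TPM in inhibitory libraries. Gm47494, also on the strand of Ryr2, stood at 31.7 and 33.8 TPM against 13.6 and 14.3 TPM. The pseudogene Gm26956, on the opposite strand, stood at 27.5 and 31.4 TPM against 13.3 and 11.5 TPM. These 3 loci were higher in excitatory nuclei by 2.04-fold, 2.35-fold and 2.38-fold (limma adjusted p = 0.0106, 0.00684 and 0.00985), beside 1.85-fold for Ryr2 itself. Within Stim2, the opposite-strand pseudogene Gm15820 stood at 18.5 and 17.6 TPM against 7.50 and 8.59 TPM, a 2.24-fold difference (limma adjusted p = 0.0193).

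Intronic genes of Itpr1, Itpr2, Atp2a2 and Stim1 were not called. Within Itpr1, the microRNA gene Mir7661 stood at 40.1 and 33.6 TPM in excitatory and at 38.7 and 38.8 TPM in inhibitory libraries, which overlap, while Itpr1 itself was called. Atp2a2 holds Gm43359, at 45.4 and 49.7 TPM against 61.8 and 61.4 TPM (limma adjusted p = 0.0881). Whether reads from unspliced host RNA were counted for such genes was not tested, and whether counting used strand was not given in the sources used here. Tested genes that share exon bases with a host on the opposite strand make values uncertain for the same reason: Aven shares 916 exon bases with Ryr3, Gm26604 shares 864 with Ryr1, Gm44101 and Gm44040 share 181 and 108 with Itpr1, and Gm43361 shares 83 with Atp2a2. Aven stood at 6.71 to 7.56 TPM in the 4 libraries, far below Ryr3.

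**Figure D4:**
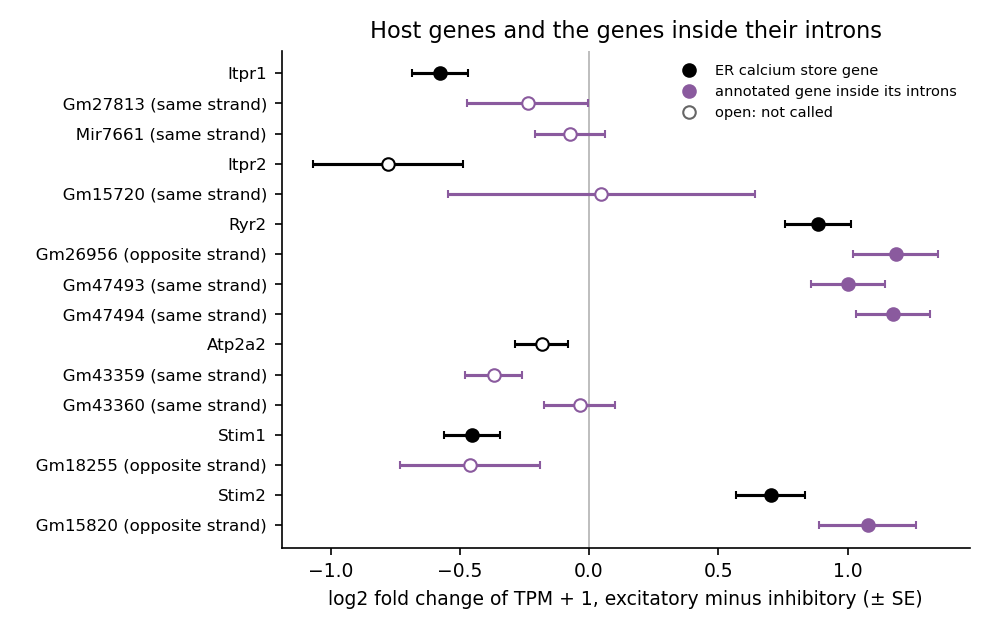
Log2 fold change of TPM + 1, excitatory minus inhibitory (± SE), for host genes (black) and the tested genes inside their introns that share no exon base with them (purple), with open points for genes not called. The 3 genes in Ryr2 and the 1 in Stim2 lie between 1.00 and 1.19, on the side of their hosts.

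The study concerns the transcription factor EGR1, which binds a GC-rich motif, so the promoters of the 10 genes were searched for it. RefSeq promoter sequence (GRCm38.p6, the assembly of mm10) was matched for 7 of the 10, Itpr2, Itpr3, Ryr1, Ryr2, Atp2a3, Stim1 and Stim2, with 1 start each. The 250 bases before the start were searched on both strands for GCGNGGGCG, 9 letters in which N is any base and whose GGGCG end overlaps the GC box GGGCGG bound by Sp factors, a box found in 32.7% of all promoters of that length. Of all 32851 promoters of that length, 4.7% held the motif, and 18.7% of the 5896 with at least 20 CpG dinucleotides. Of the 7, it was found in Itpr3 and Stim1, 1 match each, and 5 of the 7 had at least 20 CpG. These are matches of letters and not measured binding, and no match says only that these letters are not in this window.

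Shown 5′ to 3′ on the strand of the gene are the promoters of the STIM pair, whose genes went opposite ways, and of Atp2a3 and Ryr2, the genes with the widest difference toward each population. Capitals mark the motif; sequences with no match are in lower case throughout. The windows are chr7:102267569-102267818 (plus strand), chr5:53998273-53998522 (plus strand), chr11:72960919-72961168 (plus strand) and chr13:12106946-12107195 (minus strand).
Stim1: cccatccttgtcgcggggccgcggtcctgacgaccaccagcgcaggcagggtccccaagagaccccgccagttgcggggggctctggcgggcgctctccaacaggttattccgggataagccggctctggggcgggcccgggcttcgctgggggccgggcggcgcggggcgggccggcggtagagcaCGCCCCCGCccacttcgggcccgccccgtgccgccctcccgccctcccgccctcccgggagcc
Stim2: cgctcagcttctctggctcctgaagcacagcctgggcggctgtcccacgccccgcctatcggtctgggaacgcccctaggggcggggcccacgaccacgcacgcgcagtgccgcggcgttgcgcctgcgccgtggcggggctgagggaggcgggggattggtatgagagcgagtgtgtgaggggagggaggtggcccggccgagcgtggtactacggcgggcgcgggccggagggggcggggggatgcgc
Atp2a3: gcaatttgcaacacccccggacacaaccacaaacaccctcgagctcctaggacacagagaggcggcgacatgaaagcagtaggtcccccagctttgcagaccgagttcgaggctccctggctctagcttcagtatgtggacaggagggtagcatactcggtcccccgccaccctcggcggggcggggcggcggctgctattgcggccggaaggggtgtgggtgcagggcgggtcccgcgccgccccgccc
Ryr2: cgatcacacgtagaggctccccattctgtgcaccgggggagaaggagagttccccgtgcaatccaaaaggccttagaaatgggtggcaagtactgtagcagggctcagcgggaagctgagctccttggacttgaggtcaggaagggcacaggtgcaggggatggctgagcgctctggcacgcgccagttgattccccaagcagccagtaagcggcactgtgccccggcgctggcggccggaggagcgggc

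In Stim1 the motif lay on the minus strand, 63 to 55 bases before the start. GC content of these windows was 78.4% for Stim1, 74.8% for Stim2, 66.8% for Atp2a3 and 63.2% for Ryr2, against a median of 52.4% over all promoters. The CpG count was 31, 30, 20 and 14 in the same order, against a median of 6. Stim1 and Stim2, called in opposite directions, thus had the more CpG-rich windows of the 4.

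Beyond the 10 genes, 9 lists of other genes of calcium storage and release were counted, 101 genes in all, of which 93 were tested. Of these, 8 were higher in inhibitory nuclei, 7 were higher in excitatory nuclei and 78 were not called, which is 16.1% called beside 12.0% of all genes. With median ratio scaling the calls were 8 and 10. Their median log2 fold change was -0.07. All 15 called genes kept their direction in every setting, and 9 were called in each setting that could test them other than leaving out a library.

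Of 16 genes that make IP3, all tested, 3 were called on the inhibitory side and 0 on the excitatory side. Plcb4, the phospholipase C of Purkinje cells and thalamus, stood at 80.4 and 84.9 TPM against 165 and 167 TPM (2.01-fold higher in inhibitory nuclei, limma adjusted p = 0.00374). Plcb3, another phospholipase C, stood at 6.45 and 3.997 TPM against 14.5 and 18.2 TPM (log2 fold change -1.50, not called without the filter). Plcb1 and Plcd1 were chosen for mention with their values known. Plcb1, the phospholipase C of cortex and hippocampus, stood at 232 and 238 TPM against 191 and 191 TPM. Plcd1 stood at 12.8 and 13.8 TPM against 3.66 and 7.07 TPM (log2 fold change 1.22). Neither was called (limma adjusted p = 0.0908 and 0.0570). Of the 16 genes, 11 had a negative log2 fold change, beside 14928 of all 26055 genes tested.

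Regulators of IP3 receptors and the kinases that remove IP3 were called in both directions, with 4 of 15 called on the excitatory side and 2 on the inhibitory side. Car8, a carbonic anhydrase-related protein of Purkinje cells that binds IP3 receptor 1 and lowers its affinity for IP3, stood at 10.6 and 9.44 TPM in excitatory and at 45.2 and 41.8 TPM in inhibitory libraries (log2 fold change -2.02 ± 0.15, limma adjusted p = 0.00231). Irag1, named Mrvi1 in the table, a substrate of cGMP-dependent kinase that joins IP3 receptor 1, stood at 0.261 and 0.536 TPM against 3.88 and 4.30 TPM and passed the filter through the inhibitory libraries alone. Itpka, a neuronal IP3 kinase of dendritic spines, went the other way at 79.5 and 99.0 TPM against 44.7 and 33.1 TPM (log2 fold change 1.18 ± 0.18, limma adjusted p = 0.0136, not called without the filter or without a variance trend). Itprid1 stood at 2.79 and 1.78 TPM in excitatory libraries, was listed at 0 in both inhibitory ones and passed the filter through the excitatory libraries alone. The other excitatory calls, named after their values were seen, were the calcium-binding protein gene Cabp1 (159 and 187 against 93.8 and 108 TPM) and Ahcyl2, related to the IP3 receptor binding protein IRBIT (197 and 207 against 148 and 146 TPM). Both of these calls were lost without the filter or without a variance trend.

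Of 10 tested genes for ryanodine receptor partners and proteins of junctions with the cell surface, 3 were called. Homer1, a synaptic scaffold that binds IP3 receptors, stood at 412 and 461 TPM in excitatory and at 192 and 179 TPM in inhibitory libraries (log2 fold change 1.23 ± 0.11, limma adjusted p = 0.00315). Homer3, the family member known from Purkinje cells, stood at 10.7 and 12.8 TPM against 36.3 and 42.6 TPM (log2 fold change -1.66 ± 0.17, limma adjusted p = 0.00443). Jph1, a junctophilin, a protein that holds the reticulum against the plasma membrane, stood at 35.6 and 37.8 TPM against 10.3 and 12.5 TPM (log2 fold change 1.61 ± 0.16, limma adjusted p = 0.00430). Of 6 genes of contacts between the reticulum and the plasma membrane, Gramd2 was called, at 26.1 and 25.6 TPM in excitatory against 12.2 and 10.7 TPM in inhibitory libraries, and Esyt1 was not (5.74 and 7.96 against 11.1 and 13.1 TPM).

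Of 15 tested genes for proteins that bind or fold within the store, 2 were called, both on the inhibitory side. Casq2, the calsequestrin of heart muscle, stood at 0.312 and 2.17 TPM in excitatory and at 11.04 and 13.5 TPM in inhibitory libraries, with an excitatory pair that spread widely around a low level (log2 fold change -2.69 ± 0.45, limma adjusted p = 0.0176). Without excitatory replicate 1 the log2 fold change of Casq2 was -2.06, and over all settings it lay between -3.67 and -2.06. Rcn1, reticulocalbin, stood at 8.11 and 7.90 TPM against 18.4 and 14.9 TPM (log2 fold change -0.97 ± 0.20, limma adjusted p = 0.0326). Both calls were lost without the filter. Calr, calreticulin, the main calcium buffer of the store in most cells, stood at 227 and 197 TPM against 239.6 and 198 TPM, which overlap; it was singled out after its values were seen.

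The channels that STIM proteins open were not called. Limma called 0 of 7 store-operated entry genes tested (1 at an unadjusted p under 0.05), among them Orai1 at 3.87 and 3.23 TPM in excitatory and 5.88 and 6.48 TPM in inhibitory libraries (log2 fold change -0.66, limma adjusted p = 0.161) and Saraf, which slows store-operated entry, at 106 and 87.7 against 123 and 107 TPM. Limma also called 0 of 3 tested genes for the muscle pump and pump regulators, 0 of 9 leak and counter-ion channels and 0 of 12 genes of mitochondrial calcium uptake, with 0, 1 and 4 of them at an unadjusted p under 0.05. Among the genes with the smallest p on these lists were Mrln, Atp2a1, Vdac3 and Smdt1. Vdac3, a channel of the outer mitochondrial membrane, came nearest to the threshold, at 65.4 and 61.4 TPM against 85.4 and 80.0 TPM (limma adjusted p = 0.0724).

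**Figure D5:**
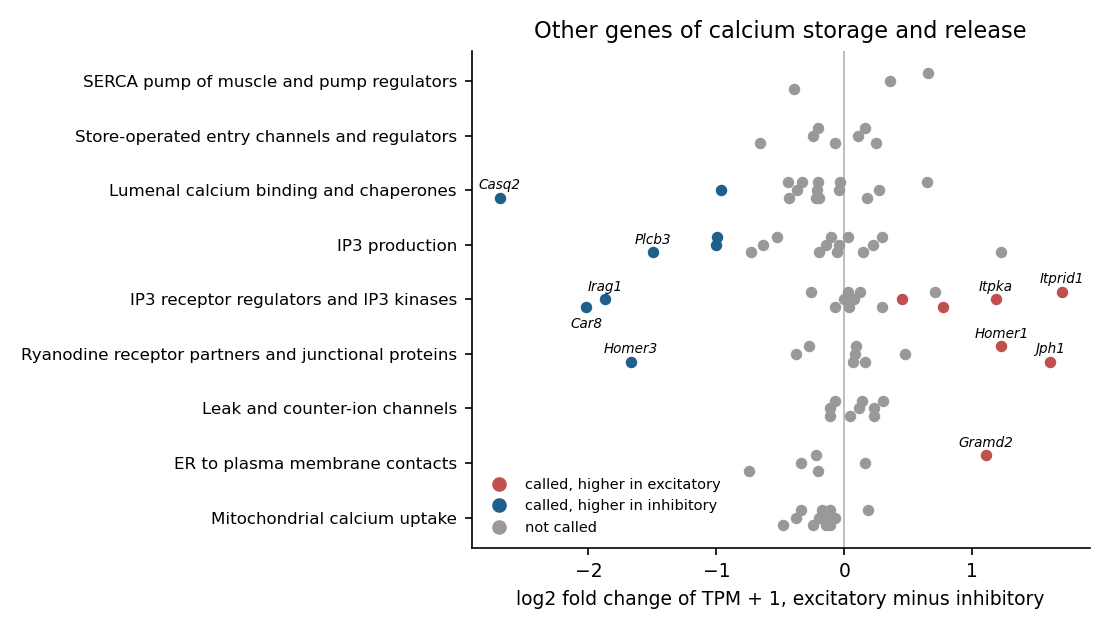
Log2 fold change of TPM + 1, excitatory minus inhibitory, for the 93 tested genes of 9 lists, 1 point per gene, with called genes in red (higher in excitatory) or blue (higher in inhibitory). Called points appear on both sides for IP3 receptor regulators and for junctional proteins, and on the inhibitory side for IP3 production and lumenal proteins.

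Most markers listed for Purkinje cells, striatal projection neurons and thalamic neurons were higher in inhibitory nuclei. Of 10 Purkinje cell markers, all tested, 8 were higher in inhibitory nuclei and 0 in excitatory nuclei, and their summed TPM was 275 to 287 in excitatory and 785 to 836 in inhibitory libraries. Pcp2, a gene nearly specific to Purkinje cells within the brain, stood at 15.6 and 13.2 TPM against 53.3 and 70.1 TPM. Gng13, at 14.3 and 12.0 TPM against 12.0 and 17.5 TPM, overlapped between the groups, and Pvalb was not called either (limma adjusted p = 0.0861). All 10 markers listed for projection neurons of the striatum were called on the inhibitory side, with sums of 212 to 237 and 1113 to 1119 TPM. Of 7 thalamic markers tested, of 8 listed, 5 were higher in inhibitory nuclei, with sums of 113 to 137 and 339 to 408 TPM. Among the 5 was Slc17a6, which is also on the excitatory list, so that the thalamic list is not one of inhibitory neurons alone. Slc17a6 stood at 22.4 and 20.3 TPM in excitatory and at 88.0 and 78.4 TPM in inhibitory libraries. Whether excitatory neurons were among the nuclei labelled inhibitory was not tested. None of the markers of these 3 lists was at 0 in every library, and Gbx2 of the thalamic list was under 1 TPM in each. Car8 stands both on the Purkinje list and among the IP3 receptor regulators. The part of such neurons in the values of the genes higher in inhibitory nuclei was not tested.

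Markers of non-neuronal cells were called in neither direction. Limma called 0 of 10 astrocyte markers, 0 of 10 oligodendrocyte markers, 0 of 9 tested microglia and blood cell markers of 12 listed, and 0 of 4 tested endothelial and mural cell markers of 10 listed. At an unadjusted p under 0.05 there were 2 astrocyte markers and 0 on each of the other lists. The summed TPM of microglia and blood cell markers was 43.1 to 45.5 in excitatory and 47.4 to 62.2 in inhibitory libraries, Cd3e was listed at 0 in all 4 libraries, and Itgam and Pf4 were under 1 TPM in each. Of the 9 tested, P2ry12, Csf1r, Ptprc and the platelet marker Itga2b were higher in both inhibitory than in both excitatory libraries without being called. The groups did not overlap for these 4, for 7 of 10 astrocyte and for 4 of 10 oligodendrocyte markers, beside 56.2% of all genes tested. Higher in both excitatory libraries were Gfap, Aldh1l1, Slc1a3, Fgfr3, Sox9 and Agt, and Mog, Mobp, Opalin and Pdgfra. The astrocyte marker Aldoc was higher in both inhibitory ones. Itga2b stood at 1.67 and 3.69 TPM in excitatory and at 6.46 and 3.93 TPM in inhibitory libraries, and P2ry12 at 17.6 and 18.5 against 24.1 and 21.3 TPM. The summed TPM of endothelial and mural markers was 11.6 to 12.0 in excitatory and 9.77 to 10.5 in inhibitory libraries, and 6 of the 10, among them Cldn5, Pecam1 and Cdh5, were under 1 TPM in every library. The part of non-neuronal cells in the value of Atp2a3 was not tested.

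The genes whose values over the 4 libraries lay nearest to those of Atp2a3 were also sought, by Euclidean distance between log2(TPM + 1) values centred on each gene's mean, among 12297 other genes with a mean of at least 5 TPM and no predicted gene or clone name. The nearest 5 were Lef1 (distance 0.203), Abhd12b (0.259), Mir466l (0.277), Ankrd55 (0.282) and Erbb4 (0.352). Lef1, a Wnt pathway factor on the thalamic list, stood at 2.19 and 1.61 TPM in excitatory and at 21.9 and 28.9 TPM in inhibitory libraries. The others are on none of the marker lists, and Erbb4 stood at 9.30 and 8.01 TPM against 82.7 and 74.2 TPM. With 2 libraries a group, such a distance mostly compares the size of the group difference.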

How the data were processed

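RNA from sorted nuclei was depleted of ribosomal RNA and made into directional libraries sequenced as read pairs, per the labels' protocols. The authors deposited 1 table of TPM values with a column per library, which sum to between 999833 and 999891. Per the submitters' processing notes, fastp 0.23.4, HISAT2 2.2.1, Bowtie2 2.3.5, StringTie 2.2.1 and the build mm10 were used; their roles, the annotation and the use of strand were not given in the sources used here. TPM keeps no depth, so precision rests on the spread of 2 libraries a group and on the prior variance that limma takes from all genes tested. That prior had 4.04 degrees of freedom in the main fit.

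Groups and replicate numbers came from sample titles. Genes reaching 1 TPM in 2 or more libraries were kept and log2(TPM + 1) was modelled in limma 3.58.1 (R 4.3.3), as excitatory minus inhibitory, with a trended prior variance, 2 residual degrees of freedom and two-sided p-values adjusted by Benjamini-Hochberg over 26055 genes; the script was tested on simulated data. A fold is a ratio of mean TPM, and a log2 fold change a difference of mean log2(TPM + 1). Positions and overlaps came from GENCODE M21, and 2 listed symbols were matched by RefSeq synonyms. Figures used matplotlib 3.10.9.

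The 10 genes and all lists were chosen with earlier results of these data known. Named besides the 10 were called pathway genes with an absolute log2 fold change of at least 1, the 2 with the smallest p on each list, and the 5 nearest to the gene of largest change. Some genes that this rule names are not reported here. Alternatives were a pseudocount of 0.1, no filter, a filter of at least 5 TPM, median ratio scaling, quantile normalization, protein-coding genes only, no variance trend, a replicate block and leaving out each library.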

Additional observations from a re-analysis of the deposited data

How the results depend on the processing

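Across 16 other settings, 155 of 158 values of the 10 genes kept their direction, and the exceptions were Itpr3 with quantile normalization (log2 fold change 0.037) and without excitatory replicate 2, with all genes or with the filter on the remaining libraries (0.049 in each); without 1 library the value of Itpr3 ranged from -0.204 to 0.049. Of the 10 genes, 5 higher in inhibitory and 2 higher in excitatory nuclei became 1 and 0 without the filter (37740 genes tested) and 1 and 0 without a variance trend; Atp2a3 was the gene called in both. Calls on the pathway lists, toward inhibitory and excitatory, went from 8 and 7 to 5 and 4 without the filter, to 8 and 10 with median ratio scaling, to 4 toward excitatory without a variance trend, and to 13 toward inhibitory with the replicate block. Over the whole table, 1725 calls toward inhibitory and 1414 toward excitatory became 740 and 666 without the filter, 1457 and 1007 without a variance trend, 1563 and 1795 with median ratio scaling, and 1570 and 1661 with quantile normalization, so that both scalings turned the balance.

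Leaving out any 1 library, which leaves 1 residual degree of freedom, gave 0 calls among the 10 genes, on the pathway lists and on the marker lists, in either direction (range 0 to 0), and 0 over the whole table, with a smallest adjusted p of 0.0545 to 0.0664. Added after seeing the data, further fits applied the filter to the 3 remaining libraries. This left out genes that reached 1 TPM in fewer than 2 of them, and the fits gave calls among the 10 genes. The log2 fold changes of the 10 genes were the same as with the genes tested unchanged. Atp2a3 was called in all 4 of these fits and Ryr2 in 3. On the pathway lists and on the marker lists these fits gave calls in both directions. The lone library of a group is assumed to vary like the others.

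The replicate numbers are not said to pair libraries, and deviations of the libraries numbered 1 correlated at 0.0957 over genes. With the replicate block, 7 of the 10 genes were called, the same as without it. Scaling moved the median log2 fold change of all genes by at most 0.07.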
